A study of Mus musculus with 2 samples.

Results

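Type I interferon neutrophils are neutrophils that carry transcripts of the antiviral program which interferon-alpha and interferon-beta switch on. Here they were the neutrophils with at least 4 unique molecular identifiers (UMIs, each standing for 1 captured RNA molecule) of Rsad2, Ifit1, Ifit3 and Cmpk2 together. They were 912 of 7842 neutrophils, and those neutrophils were part of 24160 cells that passed the filters. The members were chosen by the UMIs of these 4 genes, so the levels of the 4 genes are a description of the choice. The other genes of the program were measured in the same cells and the same contrast, so their levels are a description too.

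The study compared 2 tumors of mice by single-cell RNA sequencing with the 10x Chromium chemistry that captures the 3′ end. Both tumors grew as allografts in the mouse pancreas from KPC, which is a pancreatic cancer line of mice. The cells of one tumor carried a control hairpin (the library labelled KPC-shV), and those of the other carried a hairpin against Zeb1 (the library labelled KPC-shZEB1). Each group was 1 tumor from 1 mouse and 1 library, so mouse, tumor, library and group cannot be told apart, and no test was possible. The hairpin was in the injected tumor cells alone, and the neutrophils came from the host. The study's text states that the tumors used for single-cell sequencing came from gemcitabine-treated mice, which the labels leave out. The labels also give no age, sex or strain. Parentheses after a value hold its 95% interval, which covers counting error and nothing else. In pairs of values, the library labelled KPC-shV comes first.

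The hairpin's target was examined first. Zeb1, a transcription factor of epithelial-mesenchymal transition, was at 164 and 195 UMIs per 1000000 (CPM) in cells gated on keratins as tumor cells, a ratio of 1.19 (1.09–1.29) for the KPC-shZEB1-labelled library. In these libraries Zeb1 was at 1155 and 1287 CPM in T cells, at 169 and 224 CPM in neutrophils and at 206 and 290 CPM over all kept cells, so the tumor-cell values were no higher than those of neutrophils. The part of RNA from other cells in these values was not tested. Zeb1 RNA was not lower in the KPC-shZEB1-labelled library, so no direction between the libraries below is tied to lower Zeb1. The tumor-cell values rest on 420 and 275 gated cells. The study itself shows the knockdown efficiency in KPC cells and Zeb1 staining of tumors, which were not examined here. The libraries held 130941086 and 143461224 UMIs over 12594 and 13271 barcodes, of which 11713 and 12447 were kept as cells. The 2 libraries shared 46 barcodes. Of these, 5 barcodes of the subset in the KPC-shV-labelled library and 1 in the KPC-shZEB1-labelled library also stood in the other library, and none was in the subset of both.

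Type I interferons bind the receptor of Ifnar1 and Ifnar2, whose kinases Jak1 and Tyk2 switch on a transcription factor complex that holds Stat2 and Irf9. The complex binds a response element in the promoters of interferon-stimulated genes. Those genes encode proteins that degrade or sequester foreign RNA, tag proteins, sense nucleic acids, attract lymphocytes and shut the pathway off again. Interferon-gamma acts through another receptor, and many genes, the guanylate-binding proteins among them, answer to both. Neutrophils are short-lived granulocytes that enter pancreatic tumors from the blood, and an interferon-stimulated state is a known one for them.

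The selecting genes lie in 2 places of the mouse genome (GRCm38). Rsad2, which encodes viperin, an enzyme that makes a chain-terminating nucleotide, runs from 26442746 to 26456452 on the minus strand of chromosome 12. Cmpk2, a nucleotide kinase that supplies viperin with its substrate, lies beside it on the plus strand from 26469204 to 26479837. Ifit3 (chromosome 19, 34583531 to 34588731) and Ifit1 (34640871 to 34650009) encode tetratricopeptide proteins that bind foreign RNA and share 1 cluster. Slfn4 (chromosome 11, 83175186 to 83190216), a myeloid schlafen gene, and Isg15 (chromosome 4, 156199424 to 156200818), a ubiquitin-like modifier, were given as markers of the subset but took no part in the choice of cells.

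Promoters of 5 genes are shown because the members move together and the letters of an interferon response element can be read in them. Each is the RefSeq window of 300 bases from 250 bases before to 50 bases after the start of the gene (GRCm38.p6), 5′ to 3′ on the gene's own strand. Capitals mark GAAA, any 2 bases and GAAA again, or the same on the other strand (TTTC, any 2 bases, TTTC), and overlapping matches run together. The windows are chr12:26456403-26456702 for Rsad2, chr19:34583279-34583578 for Ifit3, chr4:156200769-156201068 for Isg15, chr5:92348840-92349139 for Cxcl10 and chr3:142620413-142620712 for Gbp2. Rsad2 and Ifit3 stand for the selecting genes, Isg15 for the markers outside the choice, Cxcl10 for secreted products and Gbp2 for the guanylate-binding proteins.
Rsad2: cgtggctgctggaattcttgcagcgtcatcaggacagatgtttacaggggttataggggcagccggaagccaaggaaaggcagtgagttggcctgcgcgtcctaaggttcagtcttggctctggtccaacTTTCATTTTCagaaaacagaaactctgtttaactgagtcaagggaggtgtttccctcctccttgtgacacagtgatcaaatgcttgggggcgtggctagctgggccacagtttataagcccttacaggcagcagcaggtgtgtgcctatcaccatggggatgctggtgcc
Ifit3: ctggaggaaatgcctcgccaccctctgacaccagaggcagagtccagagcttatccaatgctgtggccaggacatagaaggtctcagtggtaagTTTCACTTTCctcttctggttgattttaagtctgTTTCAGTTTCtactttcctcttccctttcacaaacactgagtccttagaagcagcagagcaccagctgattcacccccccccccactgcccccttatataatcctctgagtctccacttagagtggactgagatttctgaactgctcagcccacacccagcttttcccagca
Isg15: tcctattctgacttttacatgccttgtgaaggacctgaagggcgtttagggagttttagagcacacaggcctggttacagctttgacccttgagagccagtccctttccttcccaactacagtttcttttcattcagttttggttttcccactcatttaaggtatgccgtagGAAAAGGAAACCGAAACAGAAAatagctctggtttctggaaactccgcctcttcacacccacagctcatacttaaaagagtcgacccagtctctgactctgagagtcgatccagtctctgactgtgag
Cxcl10: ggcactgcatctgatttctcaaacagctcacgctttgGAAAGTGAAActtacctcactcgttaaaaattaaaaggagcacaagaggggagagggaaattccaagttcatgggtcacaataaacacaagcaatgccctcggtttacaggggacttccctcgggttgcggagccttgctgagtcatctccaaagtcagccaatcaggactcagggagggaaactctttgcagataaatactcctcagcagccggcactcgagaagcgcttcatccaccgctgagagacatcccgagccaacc
Gbp2: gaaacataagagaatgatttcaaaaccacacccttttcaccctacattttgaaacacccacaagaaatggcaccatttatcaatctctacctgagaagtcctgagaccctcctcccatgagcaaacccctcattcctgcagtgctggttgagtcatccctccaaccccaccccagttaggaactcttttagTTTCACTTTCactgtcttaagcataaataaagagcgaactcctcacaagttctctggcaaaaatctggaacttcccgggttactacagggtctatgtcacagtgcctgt

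The Isg15 window held 3 overlapping matches, which began 78, 72 and 66 bases before the start. The Ifit3 window held 2 matches, 156 and 122 bases before the start, and the Rsad2 window held 1 at 120 bases. Ifit1 also held 2 matches, and Cmpk2 and Slfn4 held none. Over the core list of interferon-stimulated genes described below, 16 of the 33 genes with a RefSeq window held a match (48.5%), and so did 10 of 11 genes of the list of interferon-induced GTPases (90.9%). The share was 3.99% of all 27025 genes with a window and 5.58% of the 1972 genes with a window that were tested in both libraries. A match is a description of letters and not a bound site.

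Neutrophils were 45% of kept cells (5268 cells) in the KPC-shV-labelled library and 20.7% (2574 cells) in the KPC-shZEB1-labelled library. The interferon subset was 672 cells, or 12.8% of neutrophils (11.9–13.7), in the former and 240 cells, or 9.32% (8.23–10.5), in the latter. The ratio of the shares was 0.731 (0.628–0.848). Relative to all kept cells the subset was 5.74% and 1.93%, a ratio of 0.336 (0.289–0.390), because neutrophils as a whole were also a smaller share. Subset cells were a little deeper than other neutrophils, with a median of 3436 UMIs against 3142 in the KPC-shV-labelled library and 3076 against 2898.5 in the KPC-shZEB1-labelled library. When every neutrophil of at least 2000 UMIs was thinned to 2000 UMIs, which left out 467 and 234 shallower cells, the shares were 9.29% and 6.71%, a ratio of 0.722 (0.598–0.868). Without thinning, the same cells gave 13.2% and 9.49%. Thinned to 1000 UMIs, with no cell left out, they were 5.45% and 4.31%, a ratio of 0.792 (0.630–0.989). The lower share in the KPC-shZEB1-labelled library was larger than counting error at each of these depths, but it rests on 1 mouse per group.

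Most neutrophils held no UMI of the 4 selecting genes, 65.1% and 69.8% of them. Subset cells held a median of 9 and 8 such UMIs, with quartiles at 5 and 18 in the KPC-shV-labelled library and at 5 and 17.25 in the KPC-shZEB1-labelled library, and highest values of 118 and 91. The number of cells fell off smoothly on both sides of the threshold, with no gap between a low and a high population. Just outside it, 183 and 64 cells held 3 UMIs, and just inside it, 101 and 39 cells held 4.

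**Figure D1:**
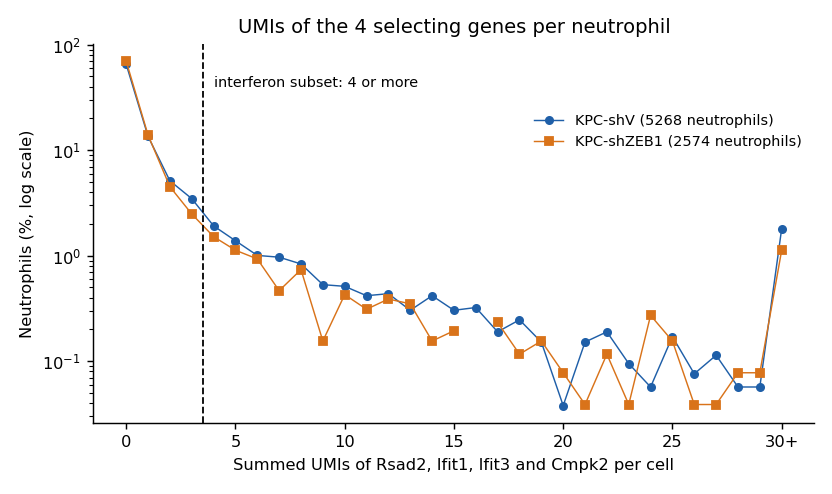
Share of neutrophils (percent, log scale) at each summed UMI number of Rsad2, Ifit1, Ifit3 and Cmpk2 per cell, for the KPC-shV-labelled library (circles, 5268 cells) and the KPC-shZEB1-labelled library (squares, 2574 cells). The point at 30+ pools cells with 30 or more UMIs, numbers with no cell have no point, and the dashed line is the threshold of 4, where neither library shows a gap.

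As background for these shares, the same count was taken in cells that are not neutrophils. Among B cells, whose median depth was 3862 and 3500 UMIs, 0 of 273 cells reached 4 UMIs in the KPC-shV-labelled library, where the limit a count of 0 allows is 1.10%, and 0.295% of 1017 did in the KPC-shZEB1-labelled library. T cells, at a median of 5617.5 and 5059.5 UMIs, reached it in 3.46% and 1.20% of cells. The neutrophil shares were thus above those of lymphocytes of equal or greater depth. Tumor cells reached 4 UMIs in 5.24% and 5.82% of cells, at a median of 23161 and 16889 UMIs. Over all kept cells, neutrophils included, the shares were 11.1% and 7.62%, not far below the 12.8% and 9.32% of neutrophils. Monocyte-macrophages reached it in 10.9% and 14.4% of cells at a depth of 9257.5 and 8767 UMIs. Cells of that type that entered the gate would count as members, and they are taken up with the markers below.

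Rsad2 carried most of the selection. It made up 74.8% and 68.2% of the selecting UMIs in the subset, against 11.4% and 14.1% for Ifit1, 9.31% and 13.8% for Ifit3 and 4.48% and 3.85% for Cmpk2. In the subset, 98.8% and 97.9% of cells held a UMI of Rsad2, and 26.8% and 19.6% held Rsad2 and none of the other selecting genes. All 4 genes were found together in 94 cells (14.0%) and 30 cells (12.5%). Levels were 3078 and 3095 CPM for Rsad2, 470 and 642 for Ifit1, 383 and 629 for Ifit3 and 184 and 175 for Cmpk2 in the subset, which are set by the choice of cells. In the other neutrophils Rsad2 was at 83.0 and 70.7 CPM.

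The markers outside the choice were checked next. Slfn4 was at 2068 CPM (2013–2125) in the subset and 433 CPM (422–443) in the other neutrophils of the KPC-shV-labelled library, and at 2147 CPM (2044–2255) and 341 CPM (327–354) in the KPC-shZEB1-labelled library. Isg15 was at 1472 CPM (1425–1520) and 241 CPM (234–249) in the former, and at 2107 CPM (2005–2214) and 370 CPM (356–384) in the latter. Both genes were therefore several times higher in the subset of each library, and the ranges for counting error did not meet. A UMI of Slfn4 was found in 93.3% and 87.9% of subset cells, and in 53.9% and 45.9% of other neutrophils. After every cell was thinned to 1000 UMIs these shares were 74.7% and 69.2% in the subset against 28.6% and 23.7% outside it.

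Neutrophil identity genes were compared between the subset and the other neutrophils, which had passed the same gate. Of 14 such genes, 13 had a mean of at least 50 CPM over the subset and other neutrophils, the minimum for a gene to be counted as tested below. None passed 1.5-fold between the subset and the other neutrophils in the KPC-shV-labelled library, and 1 did in the KPC-shZEB1-labelled library. That gene was Mmp9, a gelatinase of neutrophil granules, which was lower. Over all genes tested, 4.69% and 6.53% were past that size higher in the subset and 3.56% and 7.25% lower. Ly6g, the surface antigen used to sort mouse neutrophils, was found at low levels in all of them, 18.2 and 13.3 CPM in the subset. Since interferon-gamma and type III interferon also induce many of the genes below, the name of the subset rests on its genes and not on a measured ligand.

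The next question was how far the program extended beyond the selecting genes. Of 43 core interferon-stimulated genes in the table, none of them a selecting gene, 33 passed the minimum in the KPC-shV-labelled library and 34 in the KPC-shZEB1-labelled library, some of them only through their level in the subset. Higher by at least 1.5-fold were 33 and 33, and lower were 0 and 0, which is to be read against the 4.69% and 6.53% of all genes tested. The median log2 ratio over those members was 2.10 and 2.13, and without a minimum it was 1.84 and 2.01. The median over all genes tested was −0.14 and −0.12. Ifi44, Phf11b and Phf11d were at under 5 CPM in every class, with no difference detectable at that depth.

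**Figure D2:**
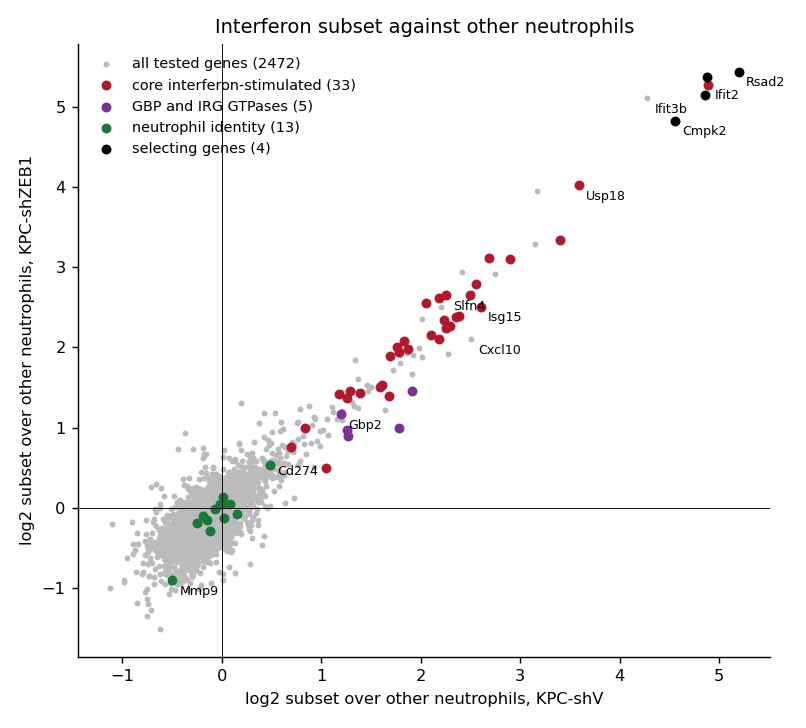
Log2 ratio of the interferon subset over other neutrophils in the KPC-shV-labelled library (horizontal axis) and in the KPC-shZEB1-labelled library (vertical axis) for 2472 genes tested in both, 1 point per gene and 1 CPM added. The selecting genes (black) and the core interferon-stimulated genes (red) lie far from 0 on both axes, GBP and IRG GTPases (purple) lie between, and the neutrophil identity genes (green) lie near 0.

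Among effectors, 15 of 18 passed the minimum in each library and all of those were past 1.5-fold, against 4.69% and 6.53% of all genes. Some, such as Ifit2, passed only through their level in the subset, which helps fix that count, and without a minimum the median log2 ratio was 1.73 and 1.95. Ifit2, the cluster neighbor of the selecting Ifit genes, had the largest ratio, from 5.6 to 194 CPM in the KPC-shV-labelled library and from 5.90 to 266 CPM in the KPC-shZEB1-labelled library. Herc6, the ligase that attaches Isg15 to proteins in mice, was at 609 and 725 CPM in the subset and at 56.7 and 70.5 CPM outside it. Ifitm3, which blocks the entry of viruses, was already at 640 and 733 CPM in the other neutrophils and reached 1565 and 2022 CPM in the subset. The smallest difference was that of Slfn1, with ratios of 1.62 (1.55–1.70) and 1.70 (1.56–1.85). The effectors thus ranged from genes with hardly any transcript outside the subset to genes, such as Ifitm3, with a high level outside it.

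Genes past 1.5-fold higher in the subset were 4.69% and 6.53% of all genes tested. Of the genes for oligoadenylate synthetases and other enzymes that act on double-stranded RNA, 6 of 7 tested were so in each library. Oasl2 had the highest level, 912 and 1010.3 CPM against 346 and 373 CPM. Oasl1, a repressor of Irf7 translation, had the largest ratio, 7.60 (6.85–8.42) and 8.77 (7.47–10.3). Eif2ak2, the kinase PKR, was at 174 and 220 CPM against 41.0 and 36.8 CPM. These 3 genes were therefore higher in the subset whether their level outside it was low or high.

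Of 21 nucleic acid sensor genes, 8 and 10 were tested. Their median log2 ratio was 2.21 and 2.11, and without a minimum that of all 21 was 1.39 and 1.67. Against 4.69% and 6.53% of all genes, 7 and 9 of the tested sensors were past 1.5-fold higher. The RNA helicase genes Ddx60 (469 and 450 CPM against 52.1 and 45), Ifih1, which encodes MDA5 (326 and 467 against 65.9 and 95.8), and Ddx58, which encodes RIG-I (322 and 336 against 67.6 and 65.5), were all among them. The DNA sensor family of chromosome 1 was led by Ifi204, at 686 and 847 CPM against 150 and 138 CPM. Aim2, a DNA sensor of the inflammasome from the same family, was not past 1.5-fold, with ratios of 0.922 (0.814–1.04) and 1.19 (0.956–1.46). The family members resemble each other in sequence, so counts may be split between them. Cgas was low, at 33.6 and 58.7 CPM in the subset, and Tmem173, its partner STING, was at 10.7 and 16.0 CPM. Toll-like receptor genes Tlr3, Tlr7 and Tlr9 were at under 10 CPM in the subset of each library.

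In the signaling pathway itself, the parts that carry the signal were set apart from the parts that are themselves induced. Ifnar1 was at 86.6 and 88.1 CPM in the subset and at 85.8 and 88.9 CPM outside it, and Ifnar2 was at 194 and 219 CPM and at 196 and 207 CPM. Jak1 had ratios of 0.978 (0.922–1.04) and 0.987 (0.884–1.10). The differences of these 3 genes between the subset and the other neutrophils were therefore smaller than counting error. Stat2 was higher in the subset, at 133 and 171 CPM against 37.9 and 43.6 CPM, and so was Irf9, at 98.5 and 113 CPM against 40.7 and 43.4 CPM, both past 1.5-fold in each library. Irf7, which amplifies the response, was at 150 and 191 CPM against 30.6 and 39.4 CPM, whereas Irf3, which starts it, stood at 15.4 and 10.7 CPM in the subset.

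Of the genes that limit the response, Usp18, which removes Isg15 and blocks the receptor, was at 258 and 254 CPM in the subset and at 20.6 and 14.7 CPM in the other neutrophils. The ratios were 12.6 (11.0–14.4) and 17.3 (13.6–22.1), the largest of this list. Socs1 was at 49.8 and 69.4 CPM against 27.5 and 31.8 CPM. Socs3, which acts on other cytokine receptors, had ratios of 0.893 (0.842–0.947) and 1.06 (0.959–1.17).

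No neutrophil population was found to carry interferon transcripts at a level that could be compared. Of 21 interferon genes in the table, 14 of them Ifna genes, 16 had no UMI in any neutrophil. Ifnb1 had 1 UMI in the subset of the KPC-shV-labelled library and none in that of the KPC-shZEB1-labelled library, where 3 UMIs, the limit a count of 0 allows, would be 4.00 CPM. Over all kept cells Ifnb1 had 35 and 70 UMIs. Ifng was at 0.791 and 4.00 CPM in the subset, on 2 and 3 UMIs, and, in T cells, at 115 and 93.4 CPM. With 3′ capture and these depths, a small number of interferon-producing cells could not be seen.

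**Figure D3:**
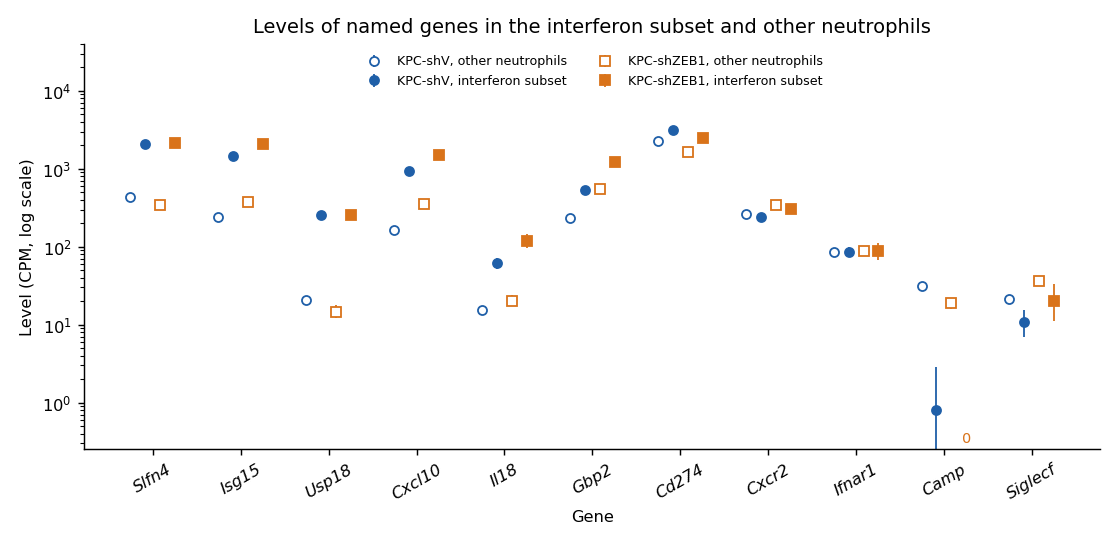
Levels (CPM, log scale) of 11 named genes in the interferon subset (filled) and other neutrophils (open) of the KPC-shV-labelled library (blue circles) and the KPC-shZEB1-labelled library (orange squares), with 95% Poisson intervals where they are wider than the point. From Slfn4 to Cd274 the filled points lie above the open ones in each library, Cxcr2 and Ifnar1 lie nearly level, and Camp, which has no UMI in the subset of the KPC-shZEB1-labelled library (shown as 0), and Siglecf lie below.

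Among genes of cytokines and chemokines, 1 of 16 tested was past 1.5-fold higher in the subset of the KPC-shV-labelled library, where 4.69% of all genes were, and 5 of 19 in that of the KPC-shZEB1-labelled library, where 6.53% of all genes were. Cxcl10, the chemokine that draws Cxcr3-bearing T cells, was past that size in both. It was at 924 CPM (887–962) against 162 CPM (156–169) in the KPC-shV-labelled library and at 1503 CPM (1416–1593) against 349 CPM (335–363) in the KPC-shZEB1-labelled library. It was concentrated in some of the subset, since 35.3% and 44.6% of subset cells held a UMI and the 5 cells with the most held 16.3% and 29.0% of its UMIs. Cxcl9, another ligand of Cxcr3 that depends on interferon-gamma, was at 32.4 against 37.1 CPM and at 93.4 against 92.5 CPM. The 2 ligands of 1 receptor thus stood apart within the same cells, which is a comparison of ratios and not of levels.

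Il18, a cytokine that helps lymphocytes make interferon-gamma, was at 61.3 against 15.3 CPM and at 120 against 20.3 CPM, the largest ratio of the list in the KPC-shZEB1-labelled library. In the KPC-shV-labelled library its mean was under the 50 CPM minimum. Il15 had ratios of 1.43 (1.29–1.57) and 1.94 (1.65–2.27). Of the abundant neutrophil products, Cxcl2 had ratios of 1.13 and 1.12, Il1b of 0.971 and 0.941 and Tnf of 0.964 and 1.14, which were all short of 1.5-fold. Ccl4 had ratios of 1.33 (1.31–1.35) and 1.52 (1.48–1.57), the latter past that size.

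On the cell surface, Cd274, which encodes PD-L1, was at 3173 and 2502 CPM in the subset and at 2268 and 1663 CPM outside it. Its ratios of 1.40 (1.37–1.43) and 1.5 (1.43–1.58) were larger than counting error, but Cd274 was a frequent transcript of all neutrophils. Fcgr1, a high-affinity receptor for antibodies that interferons induce, had ratios of 4.69 (3.68–5.96) and 4.50 (3.22–6.23) from a low level of 10.5 and 16.6 CPM outside the subset. These rest on 125 and 56 UMIs in the subset, and the mean of Fcgr1 was under the 50 CPM minimum in each library. Fcgr4 had ratios of 1.42 (1.27–1.57) and 1.75 (1.5–2.04). Of 12 and 11 tested genes of the surface list, 0 and 2 were past 1.5-fold higher, where 4.69% and 6.53% of all genes were. Lower by that size were 0 and 1, where 3.56% and 7.25% of all genes were. The 1 was Cd177, with a log2 ratio of −0.96 in the KPC-shZEB1-labelled library. The medians of the list were −0.02 and 0.06 on the log2 scale.

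Genes of antigen presentation to CD8 T cells were moderately higher. Of 12 and 14 tested genes of MHC class I and peptide supply, 6 and 4 were past 1.5-fold higher and none lower. Over all genes tested, 4.69% and 6.53% were higher by that size and 3.56% and 7.25% lower. The medians of the MHC class I list were 0.63 and 0.53 on the log2 scale, or 0.55 and 0.53 without the minimum. B2m, the light chain of MHC class I, was at 1277 and 1600.1 CPM against 879 and 1074 CPM. Nlrc5, the activator of MHC class I transcription, was at 179.9 and 304 CPM against 69.0 and 128 CPM. The heavy chain genes H2-K1 and H2-D1 had ratios between 1.18 and 1.27.

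Guanylate-binding proteins (Gbp) and immunity-related GTPases (IRG), which attack the vacuoles of intracellular microbes, were tested in 5 and 9 of 17 genes. Of these 5 and 8 were past 1.5-fold higher in the subset, where 4.69% and 6.53% of all genes were. The medians of the list were 1.26 and 1.09 on the log2 scale, or 1.20 and 0.95 without the minimum. Gbp2 was at 534 and 1234 CPM in the subset against 232 and 548 CPM outside it. Iigp1 stood apart, with ratios of 0.926 (0.663–1.27) and 0.957 (0.667–1.34). Of genes that answer chiefly to interferon-gamma, 0 of 6 and 1 of 7 tested were past 1.5-fold higher, which is near the 4.69% and 6.53% of all genes. The 1 was Socs1. Cd74, H2-Aa, H2-Ab1 and H2-Eb1 of MHC class II had ratios from 0.841 to 1.12.

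Genes of neutrophil age and state were examined for signs that the subset is a stage of maturation. Cxcr2, the receptor for neutrophil-attracting chemokines, was at 240.0 and 304 CPM in the subset and at 265 and 338 CPM outside it. Retnlg, a marker of recently recruited neutrophils, was at 894 and 482 CPM and at 882 and 523 CPM. Mreg, found in the hypoxic state of tumor neutrophils, was at 361 and 219 CPM and at 355 and 199 CPM. None of the 3 was past 1.5-fold, and of 11 tested genes of the hypoxic state none was in either library. Siglecf, of a long-lived tumor neutrophil state, was at 10.7 against 21.2 CPM and at 20 against 36.0 CPM, with ratios of 0.503 (0.327–0.746) and 0.557 (0.307–0.935) that rest on 27 and 15 UMIs in the subset.

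Transcripts of early granules were rare in the subset. Camp and Ngp, which immature neutrophils make, had 2 and 10 UMIs in the subset of the KPC-shV-labelled library against 482 and 643 UMIs outside it, and 0 and 5 UMIs in that of the KPC-shZEB1-labelled library against 136 and 446. Those outside came from very few cells, with 96.7% and 97.1% of Camp UMIs in 5 cells of each library, and the share of cells with a Camp UMI was 0.298% (0.0361–1.07) against 0.457% in the KPC-shV-labelled library. For Ngp it was 1.04% (0.420–2.13) against 0.783%, so the shares of cells with these transcripts were not told apart at this depth. Mmp9 was lower in both, at 365 against 515 CPM and at 304 against 568 CPM. The genes Hp and Lrg1 of the recruited state had ratios of 0.593 (0.533–0.658) and 0.554 (0.495–0.618) in the KPC-shV-labelled library and of 0.727 (0.624–0.844) and 0.805 (0.675–0.954) in the KPC-shZEB1-labelled library.

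Across all genes, 2472 were tested in both libraries. Of these 108 were past 1.5-fold higher in the subset in both, 30 were lower in both, and 0 went opposite ways. Of the 108, 51 stood in a list and 57 in none. By the size of the mean log2 ratio, the unlisted genes were led by Ifit3b (102 against 4.29 CPM and 175 against 4.12 CPM), a near-identical copy of the selecting gene Ifit3, so that reads may be split between them. Trim30c, a neighbor of Trim30a on chromosome 7, followed at 149 against 15.7 CPM and 216 against 13.0 CPM. Rnf213, a very large ubiquitin ligase of antimicrobial defense, had the highest level of them, at 1079 and 1266 CPM against 233 and 222 CPM. Trafd1, a regulator that limits innate signaling, was at 201 and 271 CPM against 49.1 and 52.0 CPM.

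Several others of these unlisted genes lie next to or across an interferon-stimulated gene. Fap starts 21723 bases past the end of the sensor gene Ifih1 on the same strand and was at 219 and 263 CPM against 31.9 and 34.0 CPM, although it is known as a protease of fibroblasts. Gm13822 is antisense to Oasl1 and overlaps its start, and A930037H05Rik overlaps Rnf213 on the opposite strand. Whether the counting kept strands apart was not given in the sources used here, so reads of such pairs may be mixed. 4930599N23Rik, with ratios of 5.02 (4.27–5.91) and 3.89 (2.92–5.14), is an antisense transcript of no known role.

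The unlisted genes lowest in the subset, relative to other neutrophils, were Gngt2, Nr4a2, Fto, Prkcb, Ankrd13c, Hipk1, Crtc3 and Smyd3. Nr4a2, an immediate early nuclear receptor, was at 59.3 against 91.8 CPM and at 94.8 against 271 CPM. Gngt2, a subunit of a G protein, was at 35.2 against 77.9 CPM and at 70.7 against 142 CPM. Prkcb, a kinase of the neutrophil burst, was at 87.8 against 160 CPM and at 97.4 against 223 CPM. The 30 genes lower in both libraries were long, with a median gene span of 128 kb, against 33.1 kb for all 2472 tested and 20.1 kb for the 108 that were higher.

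The program was graded within the subset. The core list summed to 3759 CPM in neutrophils of the KPC-shV-labelled library with no selecting UMI, to 9257 CPM at 3 UMIs, to 11325 CPM at 4 and to 27121 CPM at 40 or more. In the KPC-shZEB1-labelled library the same sums were 4117, 11680, 11300 and 33661 CPM. The core level thus climbed across the threshold by no more than between other neighboring bins, and the subset was the upper range of a graded scale. The median depth of these bins ran only from 2813 to 3719 UMIs. Cxcl10 was at 127 and 668 CPM at 4 UMIs and at 4353 and 7877 CPM at 40 or more, where the last value came from 12 cells. Cd274 was at 2795 and 1799 CPM and at 3665 and 2473 CPM in the same bins. Neither gene climbed steadily over the bins. In the KPC-shV-labelled library Cxcl10 was at 155 CPM at 0 UMIs and at 276 CPM at 3, both above its level at 4. In the KPC-shZEB1-labelled library Cd274 was at 2675 CPM at 3 UMIs, at 3427 CPM at 5 and at 2201 CPM at 6 to 9.

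**Figure D4:**
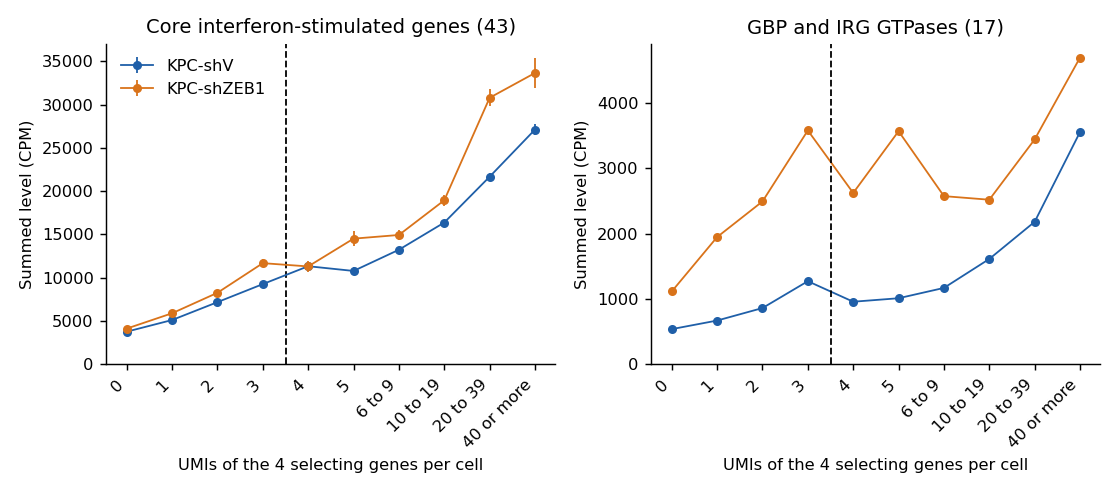
Summed level (CPM) of the 43 core interferon-stimulated genes (left, with 95% Poisson intervals) and of 17 GBP and IRG GTPase genes (right, no intervals) in neutrophils grouped by their UMIs of the 4 selecting genes, for the KPC-shV-labelled library (blue) and the KPC-shZEB1-labelled library (orange). The core level climbs on both sides of the threshold of 4 (dashed line), and the GTPase level is higher in the KPC-shZEB1-labelled library in every bin.

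Cells chosen on Rsad2 alone also carried the core list. Its sum was 10741 CPM (10488–10999) and 11209 CPM (10658–11781) in them, against 4428 and 4818 CPM in the other neutrophils and 25895 and 30419 CPM in cells with all 4 selecting genes. Cell by cell, the core list had a median of 153 and 176 UMIs per 10000 in the subset and 35.5 and 39 in the other neutrophils. Every subset cell held at least 1 UMI of it, and so did all but 33 (0.718%) and 9 (0.386%) of the other neutrophils. Of the other neutrophils, 74 (1.61%) and 34 (1.46%) were above the subset's median, so a few cells with a high program lay outside the choice.

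By their pattern over single neutrophils, the genes most like the 4 selecting genes were Herc6 (Pearson's r of 0.528 and 0.507), Isg15 (0.508 and 0.470) and Slfn4 (0.494 and 0.478) among listed genes. In no list they were Rnf213, Ifit3b, Gm13822, Trim30c and Sp100, with r from 0.416 and 0.378 for Rnf213 down to 0.365 and 0.328 for Sp100, a scaffold gene of nuclear bodies. These are over 5268 and 2574 cells, which share a library and its depth, and are a description alone.

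Markers of other cell types were set beside the subset. T cell, B cell, dendritic cell, eosinophil and red cell lists summed to between 2.67 and 37.4 CPM in the subset of each library, and their genes Siglech and Xcr1 were at 0 in it. The 9 monocyte-macrophage markers summed to 564 and 1089 CPM in the subset and to 494 and 1047 CPM in other neutrophils. C1qa, C1qb and C1qc had ratios from 0.910 to 1.18, and Csf1r, on which the gate had a limit, ratios of 0.999 and 0.780. Ly6c2, a monocyte antigen that interferon also induces, was the marker past 1.5-fold higher, at 134 and 104 CPM against 42.1 and 43.9 CPM, and Adgre1, the macrophage antigen F4/80, was lower at 49.4 and 56.1 CPM against 79.6 and 109 CPM. Tumor markers summed to 293 and 428 CPM in the subset against 306 and 429 CPM outside it, and acinar markers to 38.4 and 447 CPM against 62.2 and 407 CPM. Fibroblast markers summed to 342 and 460 CPM against 353 and 481 CPM, and endothelial markers to 118 and 84.1 CPM against 127 and 78.9 CPM. The part of cells or RNA of other types in the subset's levels was not tested. Of subset cells, 2.23% and 0.417% had a doublet score above 0.2, against 2.13% and 1.37% of other neutrophils.

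Between the libraries, the core list within the subset was a little higher in the KPC-shZEB1-labelled library. Of 36 tested members, 3 were past 1.5-fold higher in the KPC-shZEB1-labelled library and 0 lower, where 8.96% of all genes tested in the subset were higher and 4.52% lower. The median log2 ratio was 0.25, next to 0.05 for all genes, and 30 of the 36 members were above 0. Summed, the core list was at 16050 and 19065 CPM in the subset. In the other neutrophils 3 of 21 were higher and 0 lower, with a median of 0.11, where 5.99% of all tested genes were higher and 2.85% lower. The share of core members was thus near that of all genes in the subset and above it in the other neutrophils. Slfn4 had a ratio of 1.04 (0.981–1.10) in the subset, Usp18 of 0.982 (0.831–1.16) and Isg15 of 1.43 (1.35–1.52).

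The GTPases of the Gbp and IRG families stood higher in the KPC-shZEB1-labelled library in the subset and outside it alike. Within the subset 5 of 8 were past 1.5-fold, with a median of 0.71 on the log2 scale, and in the other neutrophils 5 of 5, with a median of 1.11, where 8.96% and 5.99% of all genes were. Gbp2 had ratios of 2.31 (2.12–2.51) and 2.36, and Gbp5 of 1.65 (1.46–1.87) and 2.88. The list summed to 1604 and 2948 CPM in the subset and to 610 and 1383 CPM in the other neutrophils. Cells that are not neutrophils also held more of it, 457 and 809 CPM in T cells, 237 and 514 CPM in B cells, 664 and 1295 CPM in monocyte-macrophages and 711 and 1362 CPM in tumor cells. The difference was therefore found in every gated cell type and not in the interferon subset alone. In other neutrophils the ratio of Cxcl10 was 2.15.

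**Figure D5:**
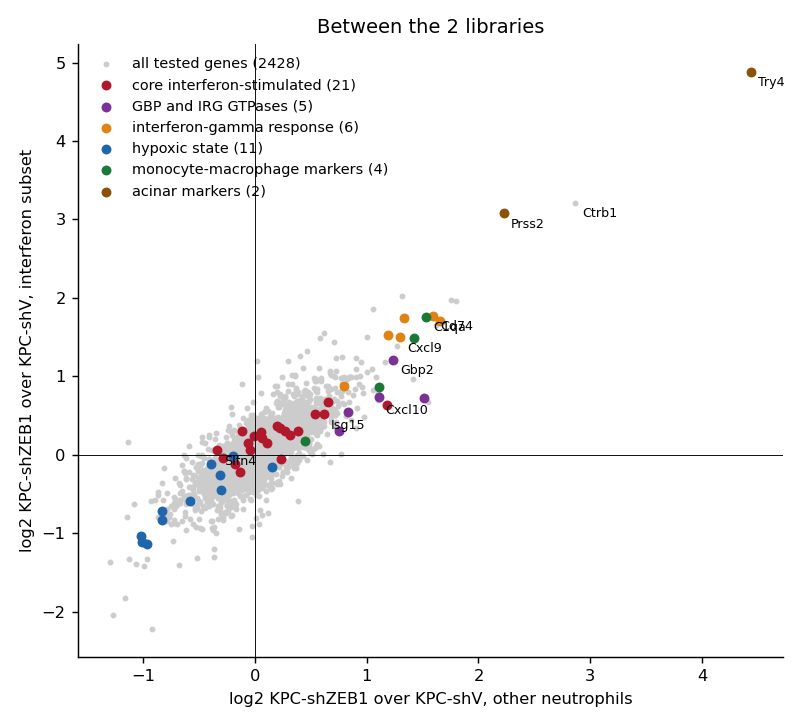
Log2 ratio of the KPC-shZEB1-labelled library over the KPC-shV-labelled library in other neutrophils (horizontal axis) and in the interferon subset (vertical axis) for 2428 genes tested in both, 1 point per gene and 1 CPM added. Most core interferon-stimulated genes (red) lie within 1 of 0 on each axis, GTPases (purple) and interferon-gamma genes (orange) lie to the upper right beside monocyte-macrophage markers (green), acinar markers (brown) lie farthest out, and hypoxic-state genes (blue) lie below 0 on the vertical axis.

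Genes of the interferon-gamma list were also higher in the KPC-shZEB1-labelled library, 6 of 8 in the subset and 6 of 6 outside it, against 8.96% and 5.99% of all genes. Cd74 had ratios of 3.42 (3.06–3.81) and 3.03, and Cxcl9 of 2.88 (2.06–4.01) and 2.49. Nos2, the inducible nitric oxide synthase, went the other way, at 85.4 and 26.7 CPM in the subset. Transcripts of other cell types moved with these. C1qa had ratios of 3.41 (2.89–4.02) in the subset and 2.91 outside it. Acinar genes, which neutrophils do not make, had the largest ratios of all genes in the subset, led by Try4 (3.56 and 133 CPM), Ctrb1 (27.3 and 262 CPM), Prss2 (22.1 and 195 CPM), Try5 (14.2 and 112 CPM) and Reg3b (14.6 and 89.4 CPM). They were about as high in other neutrophils of the same library, such as 254 CPM for Ctrb1. The part of such free or foreign RNA in the levels of Cd74, Cxcl9 and the MHC class II genes was not tested.

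The genes with the smallest ratios within the subset were Csta2, Car4, Fam20c, Nos2 and Impa2. Csta2, a stefin that inhibits cathepsins, was at 159 and 33.4 CPM, and Car4, a membrane carbonic anhydrase, was at 168 and 40.0 CPM. Of 11 tested genes of the hypoxic state, 6 were past 1.5-fold lower in the subset and 5 in other neutrophils, with medians of −0.60 and −0.58, against 4.52% and 2.85% of all genes. Ero1l, an oxidase of the endoplasmic reticulum that hypoxia induces, was at 1106 and 512 CPM in the subset and Hilpda, a lipid droplet protein, at 1864 and 1044 CPM. Cd274 was lower as well, with ratios of 0.789 (0.749–0.829) in the subset and 0.733 outside it. The differences between the libraries in the subset thus ran alongside those in the other neutrophils in these lists.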

How the data were processed

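Single-cell RNA from 2 tumors was analyzed. The deposited matrices hold raw UMI counts. Per the submitters' processing notes, the authors used Cell Ranger 7.0.1 and mm10. Intron counting and strand are not given in the sources used here. Barcodes were kept as cells with 500 or more genes, a total between 1000 and 60000 UMIs and no more than 15% of it mitochondrial. Neutrophils had S100a8, S100a9 and Csf3r at 0.4% of UMIs or more, at most 1 UMI of Csf1r and at most 2 of Krt8 and Krt18, and subset cells had at least 4 UMIs of the selecting genes. Comparison cells outside that gate were named by marker UMIs. No clustering was done, and doublets were scored with Scrublet (scanpy 1.11.5) but kept. Its automatic threshold called 0 and 265 cells, so a score of 0.2 was used instead.

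UMIs were summed per class and library and given per 1000000 (CPM). Genes were tested, meaning set side by side, at a mean of 50 CPM or more over both classes, log2 ratios had 1 CPM added, and 1.5-fold on that scale was the size for naming. Intervals are exact (Poisson, Clopper-Pearson, and conditional for ratios; scipy 1.17.1) and cover counting error only, since UMIs of 1 library are not replicates. With 1 library per group no p-value was computed. Functions were tested on simulated data with 200 changed genes.

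The members and gene lists were chosen with earlier results of these data known. Named genes are the selecting and marker genes, list members of highest level past 1.5-fold or against their list, the 8 highest and 8 lowest unlisted genes, the 5 highest and 5 lowest between libraries, the 5 unlisted genes most correlated with the selection, and Ifnb1, Ifng, Cxcl9, Cxcl10, Cd274, Siglecf, Cxcr2, Retnlg, Mreg and Zeb1. Others, such as low members and cell type markers, were named after their values were seen. Coordinates are from GENCODE on GRCm38, and sequences from RefSeq. Alternatives covered the threshold, gates, depth, doublets, the selecting genes, the added CPM and the minimum. Some items are not reported here.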

Additional observations from a re-analysis of the deposited data

How the results depend on the processing

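Each of 6 summary values was recomputed under up to 23 alternatives. The ratio of subset shares was below 1 in all 18 that bear on it, from 0.696 to 0.846, and stayed within the counting interval of the reported value. Its own interval reached past 1 with no UMI of Csf1r, Krt8 or Krt18 allowed, at 0.834 (0.649–1.06). The same held with Rsad2 left out of the rule, at 0.846 (0.681–1.05). It also held with cells left out that had a UMI of another cell type, at 0.834 (0.584–1.17). In those settings the lower share was not larger than counting error. All list medians kept their sign. With 10 CPM added the core median of subset over other neutrophils in the KPC-shV-labelled library was 1.85, and without a minimum it was 1.84. In the KPC-shZEB1-labelled library it was 1.79 once cells with a UMI of another cell type were left out. The core median between libraries in other neutrophils was 0.022 with Rsad2 left out of the rule. The GTPase median between libraries within the subset was 0.37 after thinning to 2000 UMIs and 1.01 without a minimum. The causes were not tested. Of 378 recomputed values of single genes, 269 stayed within counting error. No value whose counting interval excluded a ratio of 1 changed direction. Slfn4 between libraries within the subset, which had no clear direction, ran from −0.36 to 0.24 on the log2 scale, and Siglecf there, which rests on few UMIs, from −3.32 to 2.35. Depth limits the subset of the KPC-shZEB1-labelled library most, where 240 cells held 749321 UMIs. No paired analysis was possible because each group holds 1 library.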

Other observations

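Genes of cell death differed in part between the subset and the other neutrophils. Zbp1, a sensor of left-handed nucleic acid that can start necroptosis, had ratios of 3.08 (2.76–3.44) and 2.92 (2.45–3.46), Casp8 of 1.74 (1.5–2.01) and 2.38 (1.87–3.00) and Casp4 of 1.24 (1.18–1.31) and 1.55 (1.41–1.70). Mcl1, Nlrp3 and Bcl2a1b, which were abundant in all neutrophils, had ratios between 0.962 and 1.09. Ripk3 and Mlkl were at under 10 CPM in every class.

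In the KPC-shZEB1-labelled library, neutrophils with 3 selecting UMIs, just outside the subset, held 3579 CPM of the GTPase list, against 2622 CPM at 4 UMIs and 2518 CPM at 10 to 19 UMIs. In the KPC-shV-labelled library the same bins held 1271, 956 and 1611 CPM. Over all bins the GTPase list ran from 537 CPM at 0 UMIs to 3554 CPM at 40 or more in the KPC-shV-labelled library, and from 1113 to 4694 CPM in the other.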
